A study of Mus musculus with 4 samples.

Results

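The comparison described here set the array labelled Bach1KO with vehicle against the array labelled WT with vehicle, and asked which genes differ in marrow-derived cells at rest when Bach1 is lost. It used 2 of the 4 arrays of the series, and the other two, with heme in place of vehicle, served as a second pair with the same genotypes. Per gene, the brightest of its probe sets with a single gene symbol was taken, which gave 19938 genes. A gene is called at level where its brighter array met the overall median, a signal of 30.96, as 10859 genes did on the vehicle arrays. A gene at level is called higher or lower where its signals were at least 2-fold apart.

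Bone marrow of mice was grown in IMDM with fetal calf serum and 20 ng/ml recombinant GM-CSF for 6 days. The wild-type cultures, labelled Bach1 (+/+), and the knockout cultures, labelled Bach1 (-/-), were both on the B6 background. On day 6 they received 40 µM heme (taken as micromolar, which the labels abbreviate in lower case) or its carrier, a saline solution with ammonium hydroxide, so the vehicle groups shared GM-CSF, serum and the carrier. After 24 hours the floating cells were discarded and RNA was taken from the adherent cells, and the labels give neither the number of animals nor whether marrow was pooled. Since each group held 1 array, differences are given without error or p-value and none was checked in a replicate.

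Bach1 is a transcriptional repressor that pairs with small Maf proteins and sits on Maf recognition elements in front of genes for heme breakdown, iron storage and export, and antioxidant defence. Heme binds Bach1, releases it from DNA and marks it for degradation, so these genes open when heme is plentiful, as in macrophages that clear old red cells. Spic, a transcription factor needed for the red pulp macrophages of the spleen, is a further gene known to be held down by Bach1 in monocytes.

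The 4 arrays had median signals between 30.4 and 31.4, and Pearson's r across probe sets lay between 0.975 and 0.981 for every pair. Without detection calls in the files, the distance of a dim signal from background is unknown. The labels call the cells marrow cultures with GM-CSF, and the defining macrophage genes were well over the level limit on both vehicle arrays. The lysozyme Lyz2 read 10118 in wild type and 10705 in knockout, the F4/80 antigen Adgre1 764 and 837, and the CSF-1 receptor Csf1r 1118 and 813. The integrin Itgax (CD11c) read 1340 and 972, and of 25 dendritic cell and costimulation genes 19 were at level, among them Clec9a (101 and 161) and Batf3 (89.1 and 61.2), while Flt3 (13.3 and 16.7), Zbtb46 (23.2 and 21.6) and Xcr1 (12.7 and 12.6) were below it. Genes listed for neutrophils were also at level, with S100a8 at 4243 and 3213, Ly6g at 108 and 59.2 and Camp at 126 and 178. Of 24 measured genes of that list 21 were at level, 12 of them higher in knockout by any amount and 9 lower. These markers were picked to check the label. Of the sex-linked genes, Eif2s3y read 352 and 313, Kdm5d 122 and 122 and Uty 107 and 116, while Xist (15.6 and 9.65) was below level, and the vehicle arrays did not differ past 2-fold in any of them.

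The Bach1 probe set itself read 212 in wild type and 211 in knockout with vehicle, and 264 and 204 with heme. The position of these probes against the deletion was not given in the sources used here. The signal therefore checks nothing about the genotype, and "knockout" stands below for the label.

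Loss of Bach1 at rest went with a short list of strongly higher genes and a longer list of lower ones. The transcription factor Spic, the iron exporter Slc40a1, the scavenger receptor Marco and the heme-degrading enzyme Hmox1 were the largest increases. The chemokine Ccl17, the complement gene C1qa, the semaphorin Sema6d and the lysosomal protein gene Plbd1 were the largest decreases. In numbers, 57 genes were higher in the knockout, which is 0.525% of the genes at level, and 124 were lower, which is 1.14%. Those shares are the background for every count in a gene list below. Past 4-fold stood 4 higher and 12 lower genes. The median difference over all 19938 genes was 0.01 on the log2 scale, and the robust SD of the differences of genes at level was 0.27. Just inside the threshold lay the creatine transporter gene Slc6a8, which read 82.9 in wild type and 166 in knockout, and just outside it the carbonic anhydrase gene Car4, which read 1617 in wild type and 810 in knockout. In 30 of the 57 higher genes the wild-type array was below level, and in 38 of the 124 lower genes the knockout array was, so their folds rest on a signal under that limit.

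**Figure D1:**
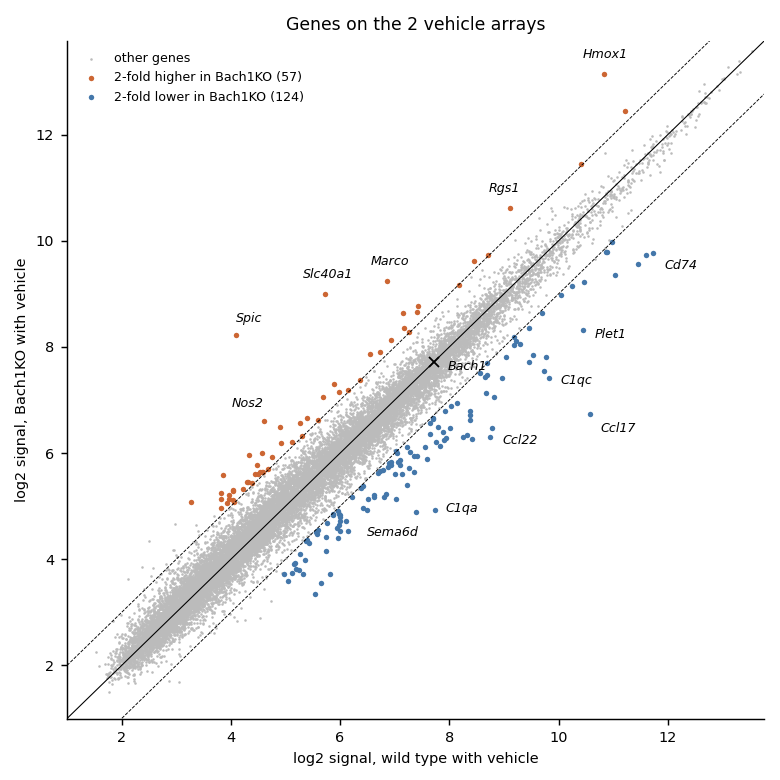
Log2 signal of each of 19938 genes on the knockout vehicle array (vertical axis) against the wild-type vehicle array (horizontal axis), with the line of equal signal and dashed lines at 2-fold. The 57 higher genes (orange) and 124 lower genes (blue) lie at both edges of a narrow cloud, Spic, Slc40a1, Marco and Hmox1 stand farthest above it and Ccl17 farthest below, and Bach1 (cross) lies on the line.

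Heme breakdown, iron release and heme transport each had 1 gene past 2-fold, and all 3 genes were higher. Hmox1, which opens the heme ring and frees iron, read 1827 in wild type and 9047 in knockout with vehicle, and 9881 and 10330.5 with heme. The wild-type vehicle array alone was low, 4.95-fold below the knockout, and the other 3 arrays lay together. Slc40a1, which encodes ferroportin, the exporter of iron from cells, read 52.7 and 512 with vehicle and 290 and 787 with heme. Here both knockout arrays lay above both wild-type arrays, 9.71-fold apart with vehicle and 2.72-fold with heme. Of all genes at level, 17.2% showed that order, and for this gene and those below the call with vehicle had set part of it. Slc48a1, the transporter that carries heme out of the phagolysosome, read 418 and 845 with vehicle and 1113 and 1242 with heme, 2.02-fold apart at rest and just under 2-fold with 16 added to each signal.

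The other members at level of these groups stayed within 2-fold. Of the 4 measured heme degradation genes the reductases Blvra and Blvrb and the constitutive oxygenase Hmox2 differed by -0.15, -0.14 and 0.14 on the log2 scale, and the group's median was 0.00. Of 22 measured genes of iron export, storage and uptake, 16 were at level, 1 was higher and 0 were lower, with a median of 0.14 beside 0.01 over all genes. The ferritin chains, which store iron, stayed within 2-fold, Fth1 at 8809 in wild type and 9927 in knockout and Ftl1 at 8328 and 8577. Transferrin receptor (Tfrc), which takes up iron, read 72.8 and 55.5, and the iron regulatory proteins Aco1 and Ireb2 differed by 0.35 and -0.13. Of 12 measured genes of heme and hemoprotein transport, 10 were at level, with 1 higher, 0 lower and a median of 0.13. After Slc48a1, the largest differences among them were those of Flvcr2, a transporter of the heme exporter family (46.7 and 77.6, log2 difference 0.73), and of the porphyrin pump Abcg2 (31.3 and 44.9, 0.52). The hemoglobin receptor Cd163 was below level on all 4 arrays, between 9.51 and 10.9. The 9 measured enzymes and carriers of heme synthesis held 0 higher and 0 lower genes with a median of 0.03, and the largest difference was that of the dehydratase Alad (57.8 in knockout, log2 difference 0.72).

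**Figure D2:**
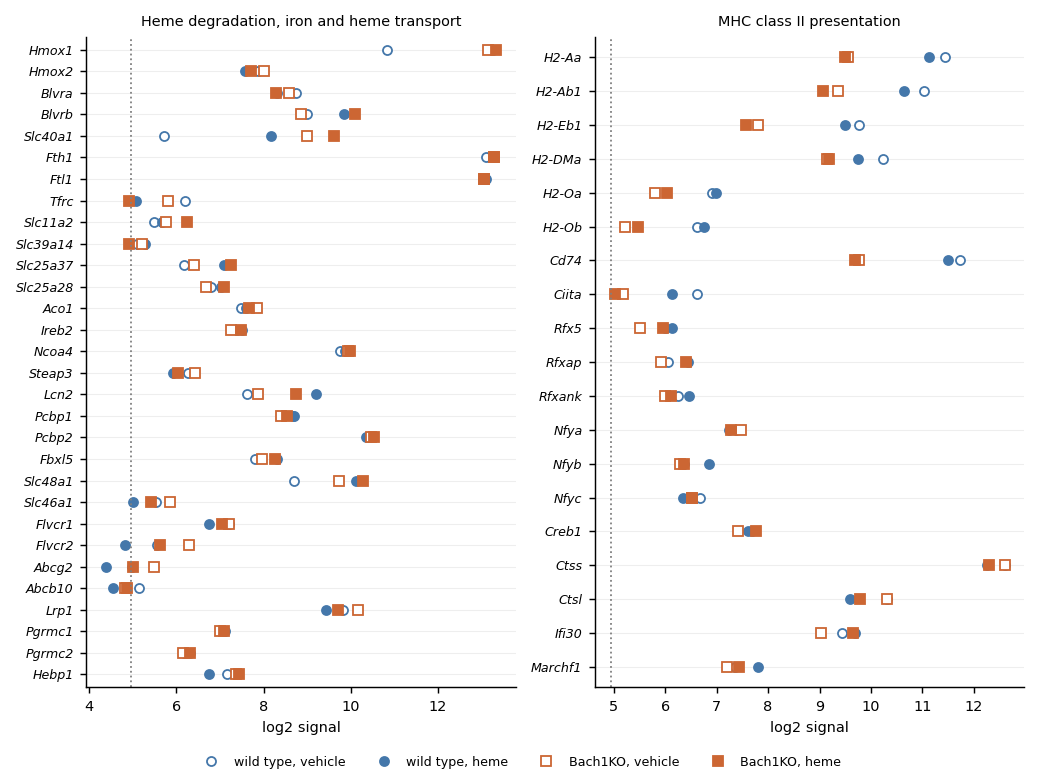
Log2 signal on each of the 4 arrays (circles wild type, squares knockout, open vehicle, filled heme) for genes at level of heme degradation, iron handling and heme transport (left) and of MHC class II presentation (right), with the level limit dotted. On the left the open circle lies far left of the open square for Hmox1, Slc40a1 and Slc48a1, and on the right both squares lie left of both circles for the class II chains, Cd74 and Ciita.

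Spic had the largest difference of any gene at level. It read 17.0 in wild type and 298 in knockout with vehicle, 17.5-fold apart, and 429 and 679 with heme. The wild-type vehicle array alone was low and was itself under the level limit, and the heme arrays differed by 1.58-fold. Since the wild-type signal was dim, differences were also taken with a constant added to each signal before log2. With 32 added the log2 difference of Spic went from 4.13 to 2.75 and that of Slc40a1 from 3.28 to 2.68. In the 250 bases before its start, the letters TGCTGAG, part of the Maf recognition element, occur on the strand shown. The stretch around them is shown because Spic carries the largest difference and Bach1 works through such elements (RefSeq promoter window, build GRCm38.p6, chr10:88683162-88683261, minus strand, 238 to 139 bases before the start, with the match in capitals).

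Spic: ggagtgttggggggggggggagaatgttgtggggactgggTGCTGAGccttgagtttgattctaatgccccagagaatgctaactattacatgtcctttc

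On either strand, TGCTGAG was found before the start in 6.21% of 32851 windows of all genes, and in 4 of 47 windows (8.51%) of the higher genes, those of Spic, Fabp7, Zfp418 and Caap1, of which Zfp418 and Caap1 did not reach 2-fold with 16 added to each signal. The AP-1 core TGACTCA, with which a full element overlaps, stood in 4.46% of all windows and in 0 of the 47. The looser pattern TGCTGANTCA, with any base at N, stood in 0.353% of all windows and in 1 of the 47, that of Scoc. Since the AP-1 core was in 0 of the 47, N in the Scoc match is neither C nor G, and the match lacks that core. The difference of Scoc was short of 2-fold with its probe sets averaged. A window was listed for 40 of the 57 higher genes, and none for Hmox1 or Slc40a1 was used here. These matches describe letters and not binding.

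Of the 16 measured genes of the Spic and red pulp macrophage group, 11 were at level, and the median was 0.10. Of these, 2 were higher and 0 lower, beside 0.525% higher of all genes at level. The second was Treml4, a receptor of splenic macrophages that binds dead cells, which read 16.4 and 39.3 with vehicle and 118 and 328 with heme. Its wild-type vehicle signal was again under the level limit, and with 16 added to each signal Treml4 no longer reached 2-fold. Siglec1 (CD169), a sialic acid receptor, read 127 and 206 with vehicle (log2 difference 0.70) and 59.4 and 133 with heme (1.16). Vcam1, the adhesion molecule that marks red pulp macrophages, stayed below level at 12.1 and 13.5, and Cd5l, a secreted scavenger protein, at 17.1 and 10.7. Runx3, a transcription factor, and Cd83, a surface molecule of activated antigen-presenting cells, differed by -0.74 and -0.73.

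The partners and rivals of Bach1 showed no difference past 2-fold, with 0 higher and 0 lower among 10 measured Bach, CNC and small Maf genes and a median of -0.01. Nfe2l2, which encodes NRF2, the activator that competes for the same elements, read 1497 in wild type and 1087 in knockout (-0.46). Its inhibitor Keap1 read 68.9 and 90.9 (0.40), and the small Maf genes Mafg and Mafk differed by -0.01 and 0.04. Among 27 measured antioxidant genes with NRF2 and Bach1 elements, 22 were at level, 1 was higher and 0 lower, with a median of 0.10. The higher one was the aldo-keto reductase Akr1b8, which read 27.0 and 60.7 with vehicle and 61.6 and 93.4 with heme, and which lost its 2-fold difference with 16 added to each signal. The glutathione genes lay next, the transferase Gstm1 (1843 and 3234, 0.81), the synthesis subunit Gclm (188 and 326, 0.79) and the reductase Gsr (372 and 574, 0.63). The transferase Gstm2, outside the group and named after its values were seen, read 106 and 239 with vehicle and 223 and 304 with heme, and was not past 2-fold with 32 added to each signal.

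Cell-surface and signalling genes were among the other increases. Marco, a scavenger receptor that binds bacteria and particles, read 115 and 605 with vehicle and 342 and 898 with heme, 5.24-fold and 2.62-fold apart, with both knockout arrays above both wild-type arrays. Rgs1, a GTPase activator that dampens G protein signalling, read 555 and 1579 with vehicle and 161 and 827 with heme, so its difference was 2.84-fold at rest and 5.15-fold with heme. Rgs2, of the same family, read 540 and 809 at rest (0.58) and 274 and 701 with heme (1.36), and of 18 measured regulators Rgs1 alone was past 2-fold with vehicle (median 0.09).

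Both enzymes that compete for arginine were higher. Arg1, which breaks arginine down, read 1362 and 2778 with vehicle and 857 and 1434 with heme, and Nos2, the inducible nitric oxide synthase, read 24.4 and 97.8 with vehicle and 80.2 and 67.3 with heme. Nos2 was thus just under 4-fold higher at rest, from a wild-type signal below the level limit, and was not higher with heme. With 32 added to each signal its log2 difference went from 2.00 to 1.20. Kmo, an enzyme of tryptophan breakdown, went the other way, at 56.5 and 13.2 with vehicle and 50.1 and 15.5 with heme, and with 32 added its log2 difference went from -2.10 to -0.97. In that group of 17 measured genes, 14 were at level and the median was -0.10. Of these, 2 were higher and 1 was lower, beside 0.525% higher and 1.14% lower of all genes at level.

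Among the largest increases were Epas1 and Hilpda, which are outside the list of hypoxia-inducible genes and were named by their size. Epas1, which encodes HIF-2 alpha, read 93.4 and 233 with vehicle and 39.8 and 68.3 with heme. Hilpda, a lipid droplet protein gene induced by low oxygen, read 172 and 437 with vehicle and 204 and 339 with heme. Of 24 measured glycolysis and hypoxia-inducible genes, 1 was higher and 0 lower, and the median was 0.25 with vehicle and -0.21 with heme. The higher gene was Ankrd37, a hypoxia-inducible ankyrin repeat gene, at 123 and 280 with vehicle and 243 and 240 with heme, and the prolyl hydroxylase Egln3 (928 and 1568, 0.76) came next.

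Other increases were spread over functions. Plpp3, a phosphatase of bioactive lipids, read 142 and 399 with vehicle and 173 and 301 with heme. Retnlg, a resistin-like secreted protein of neutrophils, read 51.7 and 133 with vehicle and 120 and 224 with heme. Fosb, an AP-1 subunit, read 41.9 and 102 with vehicle and 45.6 and 86.6 with heme. In all 3 genes both knockout arrays lay above both wild-type arrays, an order that their choice by size with vehicle had partly set. Cenpw, a kinetochore protein, was past 2-fold at rest and not with heme (29.8 and 89.8, against 63.9 and 62.5 with heme), and so was the calcium-binding protein Cib3 (9.61 and 33.9, against 22.5 and 19.7). Id3, an inhibitor of helix-loop-helix factors, read 15.5 and 37.2 with vehicle and 17.9 and 12.9 with heme. The kinase Cdc42bpa differed by 1.43 on the log2 scale at rest, Fam110c by 1.72, the orphan receptor Gpr21 by 1.31 and the hormone subunit Gpha2 by 1.27. With 32 added to each signal, Retnlg, Fosb, Cenpw, Cib3, Id3, Fam110c, Gpr21 and Gpha2 no longer reached 2-fold, and Cib3, Id3, Gpr21 and Gpha2 did not with 16 either.

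**Figure D3:**
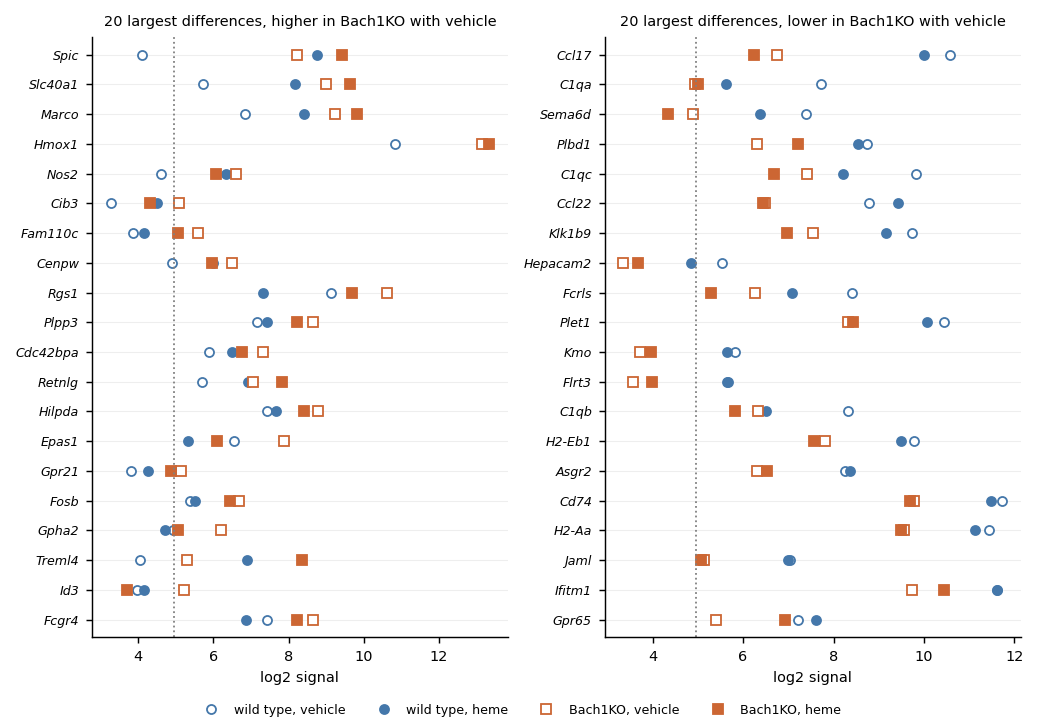
Log2 signal on each of the 4 arrays (circles wild type, squares knockout, open vehicle, filled heme) for the 20 named genes with the largest increase (left) and decrease (right) in the knockout vehicle array, with the level limit dotted. On the left the open circle is often alone at the low end, as for Spic, Hmox1 and Nos2, and on the right circles and squares mostly form separate pairs, as for Ccl17, Jaml and H2-Eb1.

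Of the 39 gene lists, MHC class II presentation held the most lower genes. These molecules carry peptides from engulfed proteins to CD4 T cells, and their genes depend on the co-activator Ciita. H2-Aa, an alpha chain, read 2792 in wild type and 751 in knockout with vehicle, and 2233 and 725 with heme. H2-Eb1, a beta chain, read 874 and 224 with vehicle and 721 and 191 with heme, and the beta chain H2-Ab1 read 2088 and 656, and 1607 and 538. Cd74, the invariant chain that guides class II molecules, read 3399 and 877 with vehicle and 2879 and 829 with heme. For all 4 genes both knockout arrays lay below both wild-type arrays, beside 18.1% of all genes at level. The call with vehicle had set part of that order. The decrease with vehicle and with heme was 3.72-fold and 3.08-fold for H2-Aa, 3.90-fold and 3.78-fold for H2-Eb1, 3.18-fold and 2.99-fold for H2-Ab1, and 3.88-fold and 3.47-fold for Cd74.

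Ciita itself read 98.8 and 36.2 with vehicle and 69.8 and 32.4 with heme, 2.73-fold and 2.15-fold lower. The peptide loading chaperone and its modulators were lower by less than the chains, H2-DMa at 1211 and 569, H2-Ob at 98.8 and 37.3 and H2-Oa at 120 and 56.1 with vehicle. With 32 added to each signal Ciita, H2-Ob and H2-Oa no longer reached 2-fold, and H2-Oa did not with 16 either. Of the list, 8 of the 20 measured genes were lower and 0 higher with vehicle, beside 1.14% of all genes at level, and 6 were lower with heme. The list median was -0.34 with vehicle and -0.39 with heme. The factors that bind the class II promoter stayed within 2-fold, Rfx5 at -0.49, Rfxank at -0.26, Rfxap at -0.13, Creb1 at -0.27 and Nfya at 0.24. So did the proteases Ctss (6210 and 6223) and Ctsl (1265 and 1276) and the thiol reductase Ifi30 (-0.41). Class I presentation, which displays peptides from inside the cell, held 0 higher and 0 lower of 16 measured genes, with a median of -0.10. The class I chain genes H2-K1, H2-D1 and H2-T23 were not used here, so that count does not cover them.

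The promoters of the class II genes share an X box, bound by the RFX complex, and a Y box, bound by NF-Y, and Ciita docks on the factors held there. A search of the 250 bases before each start took the X box core GCAAC followed on the same strand by the Y box TGATTGG after 5 to 40 bases. It found the pair in 55 of 32851 windows (0.167%). They belonged to 50 genes, 34 of them measured and 24 at level. Of the 24, 4 were lower and 0 higher with vehicle, beside 1.14% lower of all genes at level. The boxes were picked for the class II list, so these 4 are no separate support. The 4 were H2-Eb1, H2-Aa, H2-Ob and H2-Oa, and their stretches are shown with both boxes in capitals because this list held the most lower genes. They come from RefSeq windows, build GRCm38.p6, H2-Eb1 at chr17:34305766-34305822 (plus strand), H2-Aa at chr17:34287857-34287914 (minus), H2-Ob at chr17:34238808-34238862 (plus) and H2-Oa at chr17:34092293-34092350 (plus).

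H2-Eb1: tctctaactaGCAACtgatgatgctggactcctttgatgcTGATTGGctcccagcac

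H2-Aa: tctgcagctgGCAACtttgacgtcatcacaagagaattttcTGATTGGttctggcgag

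H2-Ob: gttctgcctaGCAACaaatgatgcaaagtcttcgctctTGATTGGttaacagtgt

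H2-Oa: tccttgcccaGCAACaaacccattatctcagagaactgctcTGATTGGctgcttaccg

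Between the boxes lie 25 bases in H2-Eb1, 26 in H2-Aa, 23 in H2-Ob and 26 in H2-Oa. None of the other genes at level with the pair was 2-fold lower. The ferritin gene Fth1 and the heme exporter gene Flvcr1 hold it too and differed by 0.17 and 0.00, and H2-Eb2 holds it and was below level (20.3 and 19.1). A window was listed for 5 of the 8 lower class II genes, and that of H2-DMa had no match.

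The chemokine pair Ccl17 and Ccl22, which draw CCR4-bearing T cells, included the largest decrease of any gene at level. Ccl17 read 1520 in wild type and 107 in knockout with vehicle and 1019 and 76.0 with heme, 14.2-fold and 13.4-fold lower. Ccl22 read 438 and 89.1 with vehicle and 686 and 86.4 with heme, 4.92-fold and 7.93-fold lower. In both, the knockout arrays lay far below the wild-type arrays with and without heme, where 18.1% of all genes at level had both knockout arrays lower. The genes are neighbours on chromosome 8 with Cx3cl1 between them, and that chemokine gene read 44.4 and 35.4 with vehicle (-0.33).

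Both belong to the genes linked to the factor IRF4 and to IL-4, of which 22 were measured and 19 were at level. Of the 19, 7 were lower and 1 (Arg1) was higher with vehicle, beside 1.14% lower and 0.525% higher of all genes at level. The list holds Ccl17 and Ccl22 and was chosen with earlier results of these data known, so its count is no separate support. Its median was -0.59 with vehicle, and with heme 6 were lower and the median was -0.37. With 16 added to each signal the vehicle median was -0.38, and with 32 it was -0.28. Irf4 read 158 and 87.3 with vehicle and 157 and 90.2 with heme (-0.86 and -0.80). Mgl2, a galactose-binding lectin of alternatively activated cells, read 744 and 231 with vehicle and 609 and 233 with heme. Pdcd1lg2, the PD-1 ligand PD-L2, read 153 and 52.4, and 199 and 90.9. Cish, an inhibitor of cytokine signals that STAT5 induces, read 280 and 122, and 402 and 108. Egr2, a zinc finger factor, read 2025 and 1008, and 1179 and 610, and lay at the threshold, since it was just short of 2-fold with 16 added, after a further quantile normalization and after lowess centring.

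Pdcd1lg2 shares its stretch of chromosome 19 with Jak2, the kinase through which the GM-CSF receptor signals, with 4 protein-coding genes between them. Jak2 read 454 and 132 with vehicle and 485 and 175 with heme, 3.43-fold and 2.77-fold lower. Of the 4 genes between, Cd274, the other PD-1 ligand, read 566 and 685 with vehicle, Plgrkt 478 and 440 and Insl6 106 and 94.8, and Rln1 was below level. The neighbours at level thus stayed within 2-fold. The GM-CSF receptor chains stayed within 2-fold, Csf2rb at -0.16 and Csf2ra at -0.42, as did Stat5a (-0.08), Stat5b (-0.06) and Jak1 (0.04), while the STAT5-induced Socs2 read 313 and 167 with vehicle (-0.91) and 314 and 138 with heme (-1.18). Jak2, its neighbours and, other than Cish and Csf2ra, this signalling group were named after their values were seen.

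Dendritic cell and costimulation genes were lower in part. Of 25 measured, 19 were at level and the median was -0.19. Of the 19, 4 were lower and 0 higher, beside 1.14% lower of all genes at level. By sign, 15 of the 19 lay below 0 and 4 above it, Clec9a among the latter, while Flt3, Zbtb46 and Xcr1 were below level. The costimulatory ligand Cd86 read 141 and 48.9 with vehicle and 127 and 90.5 with heme, and the lymph node homing receptor Ccr7 read 90.7 and 35.2, and 119 and 44.6, and was not past 2-fold with 32 added. The lectin Clec10a read 401 and 172, and 416 and 261, and the surface glycoprotein Cd24a read 1903 and 886, and 1386 and 811. In each of these 4 lower genes, both knockout arrays were below both wild-type arrays, beside 18.1% of all genes at level. These are whole-culture RNA values, in which fewer cells of a type and less RNA per cell cannot be told apart. Over all 25 genes the summed signal was 10214 in wild type and 8071 in knockout with vehicle and 8864 and 7196 with heme, while that of 21 macrophage identity genes was 45041 and 47254, and 39001 and 43783. Linear sums are led by the brightest members, such as Cd24a and Lyz2, so they do not measure the share of a cell type. The part of cell makeup in the class II and chemokine differences was not tested.

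All 3 chains of complement C1q, the recognition unit of the classical pathway that macrophages secrete, were lower. C1qa read 213 in wild type and 30.6 in knockout with vehicle, and 48.9 and 31.9 with heme. C1qb read 322 and 80.7, and 90.6 and 56.9. C1qc read 911 and 170, and 295 and 103. In all 3 the wild-type vehicle array stood alone at the high end, at least 2-fold above the other arrays, and the knockout was 6.95-fold, 3.99-fold and 5.36-fold lower at rest. With 32 added to each signal the log2 difference of C1qa went from -2.80 to -1.97. The 3 genes lie side by side on chromosome 4. Elsewhere in the 17 measured complement genes, Cd59a, which blocks the membrane attack complex, was higher (22.6 and 48.5 with vehicle, 22.5 and 64.3 with heme), though not past 2-fold with 16 added to each signal. Properdin (Cfp) differed by -0.73 and the receptors C3ar1 and C5ar1 by -0.35 and -0.03, and the group's median was -0.13. At level were 11 of the group, with 3 lower and 1 higher, beside 1.14% lower and 0.525% higher of all genes at level.

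Fc receptors split by member. Fcgr1, the high-affinity IgG receptor, read 237 and 84.7 with vehicle and 83.3 and 59.7 with heme, and Fcrls, an Fc receptor-like scavenger molecule, read 341 and 76.7, and 135 and 39.1. Fcgr4, which also activates on IgG, went the other way at 170 and 403, and 118 and 298. The remaining common receptors stayed within 2-fold, with Fcgr3 at 2168 and 2083, the inhibitory Fcgr2b at 882 and 852 and the shared signalling chain Fcer1g at 5469 and 5342. Of 10 measured genes 7 were at level, and the median was -0.04. Of these, 1 was higher and 2 were lower, beside 0.525% higher and 1.14% lower of all genes at level.

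Other chemokine genes past 2-fold were Ccrl2, Ccr7 and Cxcl16. Of 20 measured CC chemokine and receptor genes, 14 were at level and the median was -0.43. Of these, 3 were lower (with Ccr7) and 1 was higher, beside 1.14% lower and 0.525% higher of all genes at level. The higher one was Ccrl2, an atypical receptor that presents chemerin, at 62.7 and 143 with vehicle and 45.1 and 102 with heme, and short of 2-fold with 32 added. Ccr2, the receptor of inflammatory monocytes, read 1854 and 933 with vehicle, just short of 2-fold, and its ligand Ccl2 read 461 and 232, both named after their values were seen. Cxcl16, a membrane-bound chemokine that also takes up oxidised lipoprotein, read 406 and 140 with vehicle and 251 and 122 with heme, and was the only lower gene of 18 measured CXC and CX3C genes (0 higher, median 0.05).

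The lists of cytokines, NF-kB factors and Toll-like receptors each held 1 lower gene, of 15, 15 and 19 at level, beside 1.14% lower of all genes at level. The decoy receptor Il1r2 read 258 and 88.4 with vehicle and 344 and 93.4 with heme, the single lower gene of 24 measured cytokine and interleukin-1 family genes (0 higher, median -0.20), and Il1b read 261 and 149 (-0.81). With 16 added to each signal the median of that list was -0.10, and with 32 it was -0.06. Tnip3, an inhibitor of NF-kB, read 331 and 105 with vehicle but 359 and 289 with heme, the single lower gene of 15 in its group (0 higher, median -0.23). Ly86, the partner of the receptor CD180, read 598 and 278, and 240 and 176, again the single one of 21 Toll-like receptor genes (0 higher, median 0.00). Nr4a3, an orphan nuclear receptor among 21 immediate early genes (1 higher, 2 lower, median -0.20), read 53.5 and 21.5 with vehicle and 81.3 and 14.5 with heme, and with 16 added was not past 2-fold at rest. The type I interferon group had 0 higher and 0 lower of 23 measured genes and a median of -0.06.

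Several other decreases were also past 2-fold in the heme pair. Sema6d, a membrane semaphorin, read 167 and 29.7 with vehicle and 82.5 and 20.1 with heme. Plbd1, a lysosomal phospholipase B-like protein, read 428 and 79.3, and 374 and 148, the only gene past 2-fold among 25 lysosomal hydrolases (median 0.01). Plet1, a surface protein, read 1400 and 317, and 1074 and 345. In these 3 the knockout arrays were below both wild-type arrays, beside 18.1% of all genes at level. Plet1 belongs to the genes that GM-CSF drives in alveolar-type macrophages, of which 18 were measured, with Marco higher, Plet1 lower and a median of -0.14, and Car4 of this group lay just outside the threshold with vehicle and read 2173 and 807 with heme.

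The kallikrein Klk1b9 read 856 and 186 with vehicle and 577 and 125 with heme, 4.61-fold and 4.60-fold lower, though kallikrein genes of this family are near-identical and may share probes. The adhesion molecule Jaml read 131 and 35.3, and 128 and 33.7, and the lectin subunit Asgr2 read 305 and 78.7, and 330 and 91.7. The adhesion receptor Flrt3 read 50.4 and 11.8, and 49.9 and 15.8, and was not past 2-fold with 32 added. In these 4 both knockout arrays again lay below both wild-type arrays, beside 18.1% of all genes at level. The choice by size with vehicle had set part of that order. Ifitm1, an interferon-inducible membrane protein, read 3119 and 848, and 3126 and 1395, and the proton-sensing receptor Gpr65 read 149 and 42.3, and 195 and 121. Hepacam2, an adhesion molecule, read 46.5 and 10.2 with vehicle and was below level with heme, and its log2 difference at rest went from -2.19 to -0.90 with 32 added. The same step took Sema6d from -2.49 to -1.69 and Jaml from -1.89 to -1.28.

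The dioxin receptor Ahr, a ligand-activated factor, read 164 and 50.1 with vehicle and 233 and 84.4 with heme, and its repressor and target Ahrr read 61.2 and 24.1, and 79.5 and 45.7. With 16 added Ahrr was just short of 2-fold. Both were named after their values were seen, as was Tiparp, a further target, which read 564 and 556 with vehicle. The fusion protein Dcstamp read 217 and 74.0, and 186 and 68.3 (1 lower and 0 higher of 12 osteoclast genes, median -0.05). The membrane protease Mmp14 read 245 and 78.3, and 357 and 160 (1 lower and 0 higher of 16 genes, median 0.03). The endothelial receptor Kdr, at 48.4 and 23.6, was the single lower gene of 17 fibroblast and endothelial genes (0 higher, median 0.01), and did not reach 2-fold with 16 added.

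The lists of macrophage identity, cell cycle and lipid genes held Fcgr1 and Cenpw past 2-fold. Of 21 measured macrophage identity genes, 0 were higher and 1 (Fcgr1) was lower, with a median of 0.06. Cell cycle genes gave 1 higher (Cenpw) and 0 lower of 32, with a median of 0.16 at rest and -0.02 with heme. Cholesterol synthesis held 0 higher and 0 lower of 19 measured, but its median was -0.26 at rest and -0.25 with heme, and 15 of the 19 lay below 0. Genes of LXR and lipid efflux (12 measured, median -0.08) also had none past 2-fold. Scavenger receptors gave Marco higher and Cxcl16 lower of 16 (median 0.12), and C-type lectins gave Mgl2 and Clec10a lower of 24 (median 0.00).

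Among markers of neutrophils, other granulocytes, lymphocytes and erythroid cells, Retnlg and Il1r2 were past 2-fold. Of 24 measured neutrophil genes, Retnlg was higher and Il1r2 lower, the median was 0.05, and the summed signal was 12309 in wild type and 10316 in knockout with vehicle. Eosinophil, basophil and mast cell genes had 0 higher and 0 lower of 16, with the eosinophil granule gene Prg2 at 872 and 502, a log2 difference of -0.80. Lymphocyte genes gave 0 and 0 of 20 (median -0.09), with Cd79a, Cd3d and Ncr1 below level, and erythroid and platelet genes gave 0 and 0 of 13 (median -0.01).

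**Figure D4:**
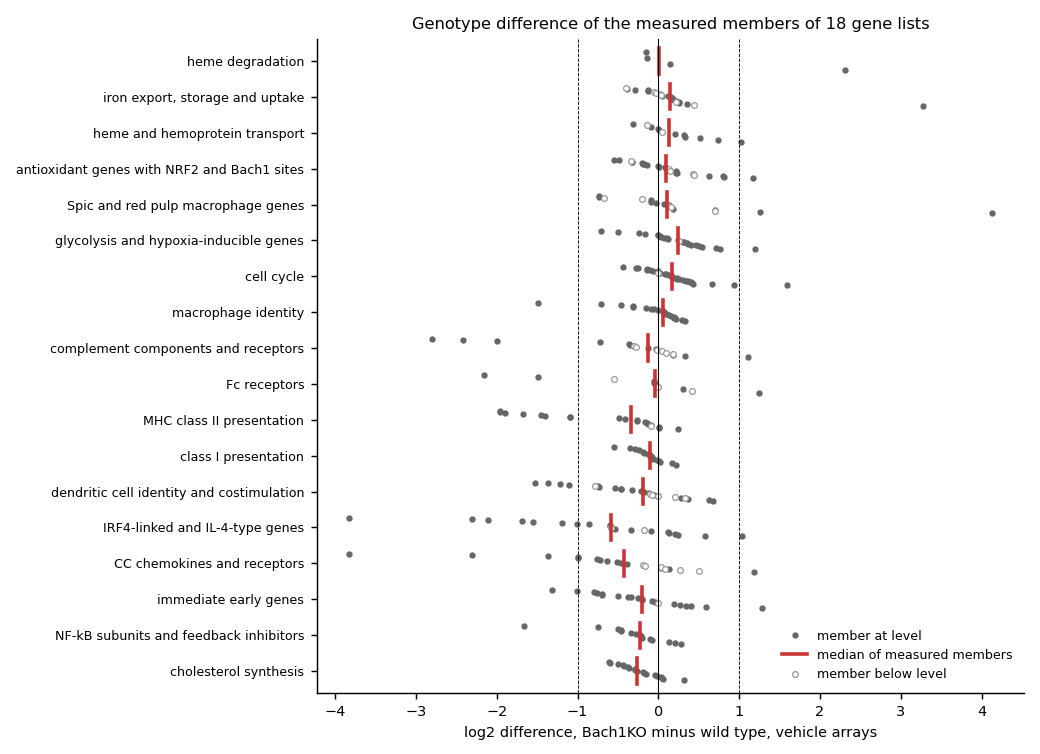
Log2 difference, knockout minus wild type with vehicle, of each measured member of 18 gene lists (filled points at level, open points below it), with each list's median in red and dashed lines at 2-fold. Heme, iron and Spic lists hold 1 or 2 far members and a median near 0, while MHC class II, IRF4-linked and CC chemokine lists reach medians of -0.34, -0.59 and -0.43.

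The heme arrays, which share no sample with the vehicle arrays, gave a second look at the same genotypes in other conditions. On them 56 genes (0.519% of 10790 at level) were higher and 105 (0.973%) lower in the knockout. Of the 57 genes higher at rest, 47 were at level with heme, 13 (22.8%) were again 2-fold higher and 44 (77.2%) had the same sign, and their median difference was 1.18 at rest and 0.54 with heme. Of the 124 lower genes, 112 were at level with heme, 53 (42.7%) were again 2-fold lower and 111 (89.5%) had the same sign, with medians of -1.34 and -0.89. The vehicle difference chose these genes, which enlarges their vehicle medians. Whether heme changed the genotype difference was therefore not tested by the smaller medians with heme. Both knockout arrays lay above both wild-type arrays for 35 of the 57 higher genes and below them for 103 of the 124 lower genes. Of all genes at level with vehicle, 17.2% lay above and 18.1% below in the same way. The counts of called genes include the vehicle arrays, whose order the 2-fold rule had set. Over the 10494 genes at level in both pairs, the differences correlated across genes with r = 0.385. The 2 pairs shared platform and processing, and genes are not independent replicates.

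In some genes 1 array stood apart. The wild-type vehicle array alone differed at least 2-fold from the other 3 in 16 of the higher genes, among them Spic, Slc40a1, Hmox1, Slc48a1, Marco and Nos2, and in 14 of the lower genes, among them C1qa, C1qb, C1qc and Fcgr1. The knockout vehicle array alone stood apart in 4 of the higher genes, with Epas1 and Id3, and in 15 of the lower genes, with Tnip3, Gpr65 and Mmp14. Class II genes, Ccl17, Ccl22 and Jak2 were in neither set. With 1 array a group, genotype and culture cannot be told apart for any of them.

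**Figure D5:**
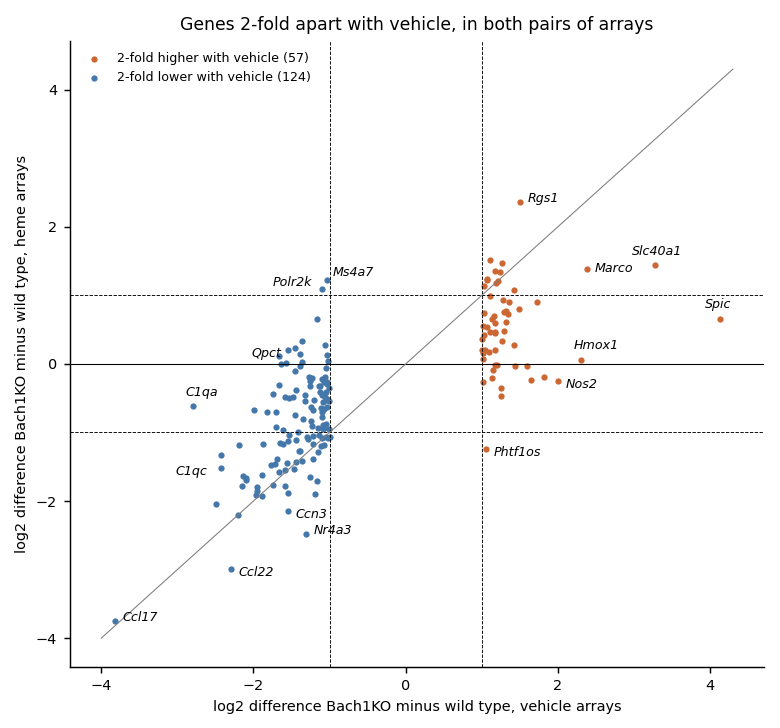
Log2 difference, knockout minus wild type, on the heme arrays (vertical axis) against the vehicle arrays (horizontal axis) for the 57 higher (orange) and 124 lower (blue) genes, with the line of equality and dashed lines at 2-fold. Among lower genes Ccl17 lies near the line, Spic, Hmox1 and C1qa lie far nearer to 0 with heme, and Ms4a7, Polr2k and Phtf1os change sign.

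Genes near Bach1 were looked at as a group. Of 89 measured genes within 5 Mb of it on chromosome 16, 36 were at level, and the median of the 36 was -0.07. Of the 36, 0 were higher and 1 was lower, beside 0.525% higher and 1.14% lower of all genes at level. The lower gene was Tiam1, an exchange factor for the GTPase Rac, which read 165 and 61.7 with vehicle and 109 and 54.6 with heme. Next came Tmem50b (482 and 269, -0.84), Cryzl1 (173 and 230, 0.41) and Atp5j (776 and 597, -0.38). The neighbours were taken from a RefSeq gene table of GRCm38.p6.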

How the data were processed

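The deposited values were linear intensities, 1 per probe set and array, made by the authors with RMA (background correction, quantile normalization and summary of probes), per the submitters' processing notes, which give no version. That the intensity scale is linear was read from the values, and RNeasy columns and the Ovation PicoSL kit stand in the labels. The median of each column was 30.4 (WT vehicle), 31.4 (Bach1KO vehicle), 30.9 (WT heme) and 31.1 (Bach1KO heme), and 1 array a group limits the precision. The design text of the series tells of sorted progenitors from chimeras, another RNA kit and ArrayStar. That text and the sample labels disagree, and the labels were followed.

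Of 35556 probe sets, 21789 had 1 gene symbol in the array annotation, 1621 had several and 12146 were not listed, and 21698 matched the RefSeq gene table. Signals were taken to log2 with no further scaling, and 999 genes had several probe sets, of which the brightest by mean log2 was used. Differences are knockout minus wild type, with no test. Probe sets with no symbol or several stayed out of the comparison.

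The comparison, the 39 gene lists and the rule for named genes were chosen with earlier results of these data known. Named are Bach1, Spic, Hmox1, Ccl17 and Ccl22, the 20 largest increases and 20 largest decreases (clone, predicted, small RNA and receptor segment names left out), list members past 2-fold, up to 4 further members of each list with the largest difference, all members of 9 short lists, the largest differences within 5 Mb of Bach1, and genes that are 2-fold apart in opposite directions in the pairs. Exceptions are marked, and Irf4, Cx3cl1, Slc6a8, genes with a motif match and the cell type markers were also named after their values were seen. Of the list entries, 57 were not used here. List medians are over all measured members. Promoter windows are the 250 bases before each start in RefSeq, GRCm38.p6.

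Other settings tried were a threshold of 1.5-fold or 3-fold, a level filter at the 75th percentile or none, a constant of 16 or 32 added before log2, repeated quantile normalization, lowess centring (span 0.3) and averaged probe sets. The caller was tested on simulated data with planted 4-fold changes and a set noise, so calls near 2-fold were not tested. Computation was done in Python 3.11.15 with pandas 2.3.3 and numpy 2.4.6, lowess with statsmodels 0.14.6 and plots with matplotlib 3.10.9.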

Additional observations from a re-analysis of the deposited data

Results flagged for a closer look

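Some genes were 2-fold apart between the genotypes in opposite directions with vehicle and with heme, and these differences between the pairs were not tested. Ms4a7, a membrane protein of macrophages, read 131 in wild type and 64.1 in knockout with vehicle and 21.5 and 50.3 with heme, a log2 difference of -1.04 at rest and 1.23 with heme. The antisense RNA gene Phtf1os read 21.0 and 43.6 with vehicle and 33.2 and 14.0 with heme, a difference of 1.05 and -1.24. Polr2k, a small subunit of RNA polymerases, read 47.6 and 22.2 with vehicle and 30.2 and 64.2 with heme, a difference of -1.1 and 1.09. In each of the 3 the dimmer array of at least 1 pair was under the level limit, and with 16 added to each signal none reached 2-fold with vehicle.

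Signal differences also lay outside the genes compared. Of 13767 probe sets without a single gene symbol, 6787 were at level on the vehicle arrays, and the knockout was higher by 2-fold or more in 496 of them (7.31%) and lower in 374 (5.51%). In the heme pair 110 of the 496 and 45 of the 374 were again 2-fold apart in the same direction. What these probe sets measure was not analysed here.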

How the results depend on the processing

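The counts depended on where the threshold and the floor were set. Against 57 higher and 124 lower genes, a 1.5-fold rule gave 353 and 468, a 3-fold rule 9 and 35, a level limit of 106, the 75th percentile, 23 and 80, 16 added to each signal 25 and 77, and 32 added 16 and 56. No level filter gave 74 and 139, quantile normalization applied again 53 and 126, lowess centring 52 and 126 and averaged probe sets 57 and 124. In all of these settings more genes were lower than higher, from 43.0% of called genes higher with the 1.5-fold rule to 20.5% with the 3-fold rule, against 31.5%. The 81 named genes past 2-fold kept their direction under the 5 settings that recompute them, and 61 kept 2-fold with 16 added, 49 with 32 added, 80 after quantile normalization, 79 after lowess centring and 80 with averaged probe sets. Of 195 recomputed list medians, 4 moved by over 0.1 on the log2 scale.

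With 1 array a group, the vehicle difference has no error of its own, and genotype, culture, animal and array cannot be told apart. A fit of genotype and treatment over the 4 arrays, which would give the genotype difference averaged over vehicle and heme, was not run. Folds of dim signals are limited by the unknown background. The antisense and small RNA genes rest on probe sets whose strand and overlap were not analysed here. No paired analysis by replicate number was made, since the labels give no such numbers.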
